A study of Homo sapiens with 6 samples.

Results

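The comparison described here set 2 RNA-seq libraries of PC-9 cells with shRBM10#2 against 2 libraries of PC-9 cells with shScr, 4 of the 6 libraries of the series. PC-9 cells are an established line from a human lung adenocarcinoma, which carries an activating deletion in EGFR. shScr is a scrambled short hairpin RNA used as control, and shRBM10#2 is a short hairpin RNA against RBM10. All cells were grown in RPMI with 10% FBS and received no drug, so the comparison concerns untreated cells. The 2 remaining libraries carry shRBM10#1, a hairpin against another stretch of the RBM10 mRNA. Expected counts of all transcripts that share a gene symbol were summed, so a value below is a gene total and a switch between isoforms that leaves their sum the same does not show in it.

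RBM10 is an RNA-binding protein that binds near splice sites, mostly in introns, and controls whether cassette exons are kept or skipped. It is mutated or lost in a share of lung adenocarcinomas, and its paralogs RBM5 and RBM6 are splicing regulators as well. A splicing factor can alter a gene's total mRNA when the isoforms it favors differ in stability, for example through nonsense-mediated decay, and otherwise alters it by way of the proteins it controls.

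The site that shRBM10#2 targets is shown because its match to RBM10 defines the condition. It lies in the coding sequence of exon 6 of 24 at chrX:47175032-47175052 (GRCh38, plus strand), and all 21 bases are in capitals because the hairpin is written to pair with the whole stretch.
shRBM10#2 target site: CTTCGCCTTCGTCGAGTTTAG

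RBM10 (GRCh38 chrX:47144869-47186813, plus strand) was at 83.1 and 86.1 CPM in the shScr libraries and at 27.2 and 26.9 CPM in the shRBM10#2 libraries, which left 31.9% of the control level. CPM is the gene's expected count scaled to a library total of 1000000, with library totals adjusted by the trimmed mean of M values (TMM). The fold change on the log2 scale (log2 FC) was -1.65 ± 0.061 (SE, n = 2 libraries against 2), with a false discovery rate (FDR) of 6.27e-08 by edgeR's quasi-likelihood test, and all such values below are from that fit. In the shRBM10#1 libraries RBM10 was at 59.9 and 56.5 CPM, and the level with shRBM10#2 was lower than with shRBM10#1 (log2 FC -1.10 ± 0.067, FDR = 8.03e-05). RBM5 was at 24.2 and 23.6 CPM with shScr and 31 and 31.4 CPM with shRBM10#2 and rose (log2 FC 0.38 ± 0.069, FDR = 0.00176). RBM6 was at 35 and 32.2 and 35.4 and 32.4 CPM, and these ranges overlapped (log2 FC 0.012 ± 0.075, FDR = 0.922). Among the paralogs, the knockdown thus went with a modest gain of RBM5 mRNA, and a difference in RBM6 was not detectable at this depth and spread.

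Library totals ranged from 31953729 to 37557507 expected counts over the 6 libraries, and 16632 to 16966 gene symbols had a count above 0. The mean fragment length behind the RSEM estimates was 231.2 nt in shScr 2 against 264.9 to 281.2 nt in the other 5 libraries, so shScr 2 stood apart. The labels do not say whether replicates came from separate cultures, and the p-values measure the spread between these libraries, which may be technical. The epithelial keratins KRT8 and KRT18 were at 10054 and 9524 and 5800.3 and 5800.4 CPM with shScr, the adhesion protein EPCAM was at 383 and 368 CPM, and CDH1, the E-cadherin gene, was at 363 and 372 CPM. The lung lineage genes were low, with NKX2-1 at 9 and 16 counts, SFTPB at 2 and 0 counts and NAPSA at 0.123 and 0.304 CPM in the shScr libraries. Of 20 marker genes of blood, endothelial and stromal cells and liver, 7 passed the filter on low counts and 4 to 6 had 0 counts in each of the 4 libraries. Their summed level was 139 and 144 CPM with shScr and 117 and 120 CPM with shRBM10#2, most of it from CD68, a lysosomal protein that epithelial lines express too. Without CD68 and COL1A1 the sum was 18.7 and 20.4 CPM with shScr and 24.5 and 24.3 CPM with shRBM10#2, so it was higher instead. With shRBM10#1 this reduced sum was 29.4 and 36.2 CPM, higher still. The liver marker ALB is part of it, at 0 CPM in both shScr libraries and 2.07 and 2.45 CPM with shRBM10#2. Of the 7 markers tested, 1 rose (ALB) and 3 fell, and by DESeq2 0 rose and 1 fell. In bulk RNA, fewer cells of a type and less RNA per cell cannot be told apart.

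A total of 14079 genes could be tested, and 4530 of them (32.2%) had an FDR below 0.05. Of these, 2126 (15.1%) were higher with shRBM10#2, written below as rose, and 2404 (17.1%) were lower, written as fell. The median log2 FC over all genes tested was 0.0033. The share of genes called depended on level. In the tenth of genes lowest in mean CPM 4.12% rose and 3.05% fell, and in the tenth highest, from 144.4 CPM, 16.9% rose and 32.5% fell. Counts of abundant gene groups below are to be read beside these shares. Most differences were small, since 3601 of the 4530 genes (79.5%) differed by less than 0.5 on the log2 scale and 725 by 0.5 to 1. The criteria of a change beyond 1 on the log2 scale in either direction, together with an FDR below 0.05, were met by 204 genes (1.45%), 111 higher (0.788%) and 93 lower (0.661%). Of the 204, 183 had a mean below 10 CPM and 99 a mean below 1 CPM, and only 21 of 9475 genes with a mean of at least 10 CPM met the criteria, 9 higher (0.095%) and 12 lower (0.127%). The number of genes with an FDR below 0.05 was 2582 without shRBM10#2 replicate 1 and 2416 without shRBM10#2 replicate 2, while leaving out shScr 2 gave 5758. For each gene group below, the rises and falls without a library, by DESeq2, by limma on log2 of summed TPM and with the offset for base composition described next are given where either count moved by over 1.5 times and by at least 2 genes, or where the balance of rises and falls turned.

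**Figure D1:**
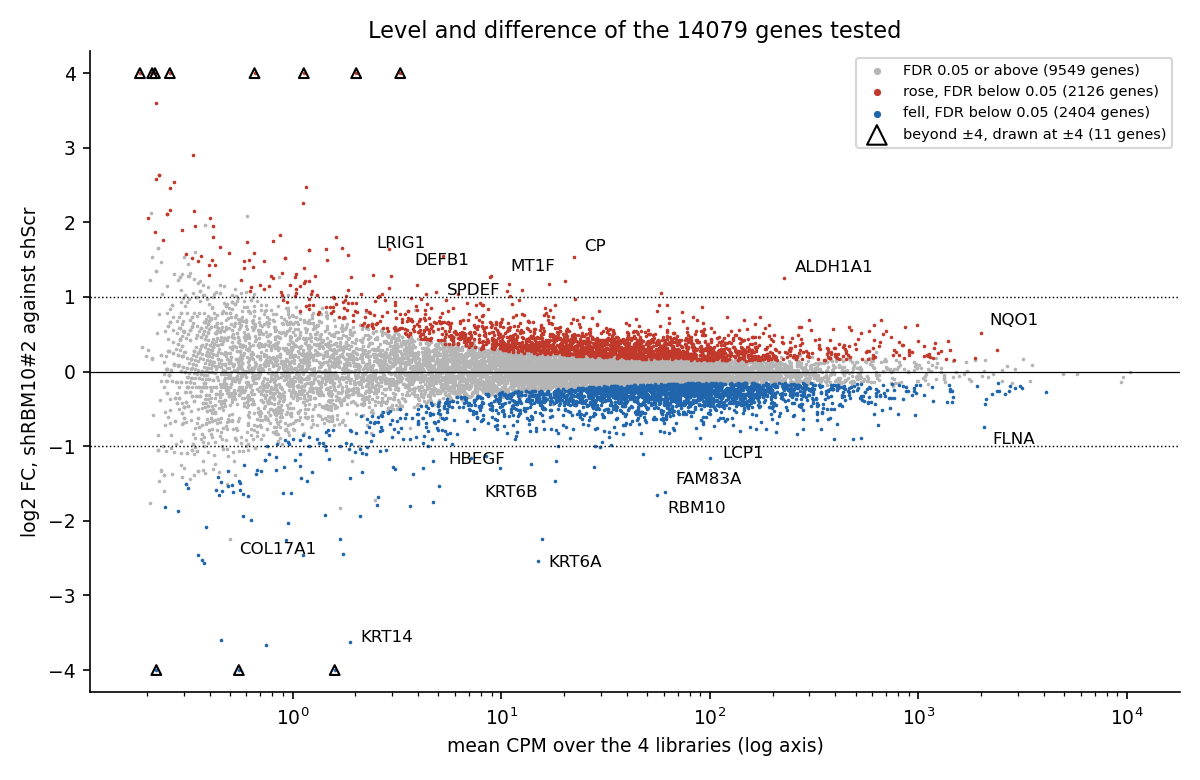
Log2 FC of shRBM10#2 against shScr (vertical axis) by mean level over the 4 libraries in CPM (horizontal axis, log scale) for the 14079 genes tested. Genes with an FDR below 0.05 are colored by direction, dotted lines lie at -1 and 1, and some genes are named. Genes beyond 4 on either side are drawn at the edge. Most of the 204 genes that meet the criteria lie below 10 CPM, and RBM10 is among the few of higher level that fell by more than 1.

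The differences followed base composition. Across 13941 genes with a matched transcript, Spearman's rho between the log2 FC and the percentage of G and C bases (GC) was -0.362, a description across genes, which are not replicates. In the tenth of genes lowest in GC the median log2 FC was 0.175, with 36.2% of genes up and 3.15% down by the FDR, and in the tenth highest in GC it was -0.154, with 3.59% up and 31.6% down. The same trend separated the control replicates, with a rho of -0.274 for shScr 2 minus shScr 1, whereas it was -0.00626 between the shRBM10#2 replicates. The main gene groups below are therefore also given from a fit with an offset that removes the trend with GC, in which 3776 genes (27.1%) had an FDR below 0.05, 1834 higher (13.2%) and 1942 lower (13.9%). The part of GC in the results was not tested beyond that offset. Transcript length showed a weaker trend, with a rho of -0.0883. In the tenth of genes with the shortest transcripts 20.8% rose and 10.1% fell, and in the tenth with the longest 11.8% rose and 22.7% fell. With the GC offset their median log2 FCs were 0.111 and -0.0962, so the offset did not remove this trend. Its part in the gene groups below was not tested.

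**Figure D2:**
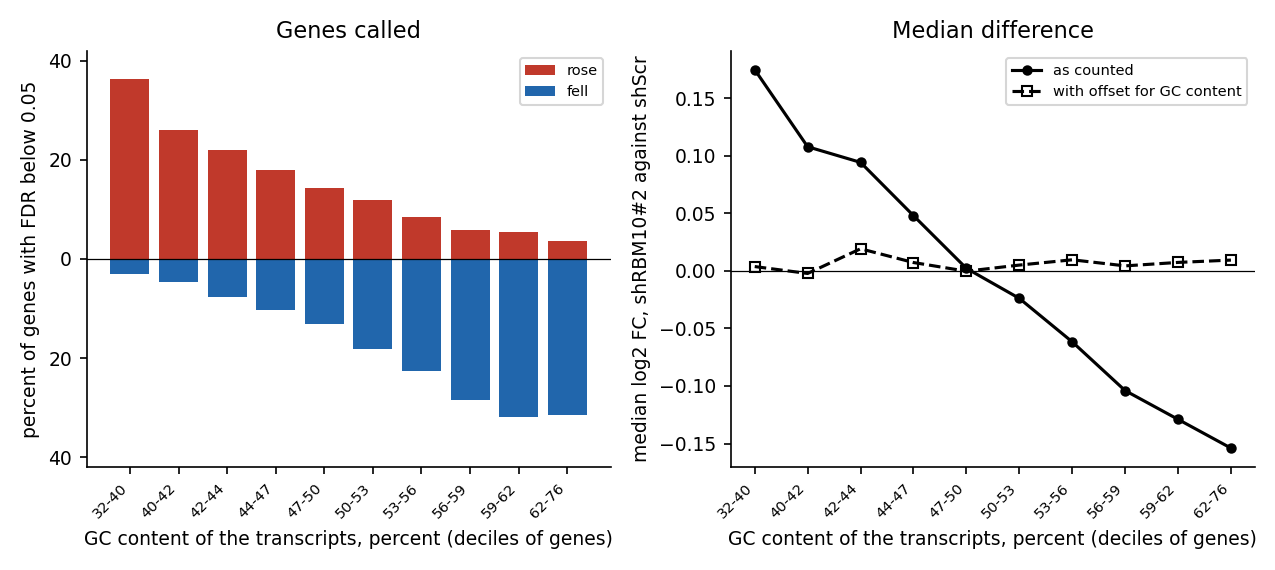
Genes in 10 bins of equal size by percent GC of their transcripts (horizontal axis), with the percentage of genes that rose and fell (left panel) and the median log2 FC of shRBM10#2 against shScr as counted and with the offset for GC (right panel). As counted, the median goes from 0.175 in the lowest bin to -0.154 in the highest, and with the offset it stays near 0.

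Keratins of stratified and stressed epithelium were 3 of the 12 genes that met the criteria downward at a mean of at least 10 CPM. KRT6A (chr12:52487174-52493257, minus strand, GRCh38), a keratin induced in injured and hyperproliferative epithelium, was at 24.4 and 26.8 CPM with shScr and 4.15 and 4.67 CPM with shRBM10#2 (log2 FC -2.54 ± 0.10, FDR = 1.20e-07). Its neighbor KRT6B was at 26.7 and 26.5 and 9.53 and 9.84 CPM (log2 FC -1.46 ± 0.082, FDR = 2.18e-06), although the 2 genes are near-identical and reads may have been divided between them. KRT13, a keratin of internal stratified epithelia, was at 43.4 and 35.9 and 15.4 and 17.3 CPM (log2 FC -1.28 ± 0.10, FDR = 1.35e-05). In each case both shRBM10#2 libraries lay far below both shScr libraries. Among basal keratins at lower level, KRT14 fell, at 3.51 and 3.43 CPM against 0.350 and 0.209 CPM (log2 FC -3.63 ± 0.30, FDR = 2.23e-05). KRT5, its usual partner, was at 6.10 and 5.25 against 1.48 and 1.77 CPM and fell too (log2 FC -1.80 ± 0.18, FDR = 6.91e-05), and was picked after its values were seen. KRT15 (log2 FC 0.38 ± 0.071, FDR = 0.00225) and KRT23 (log2 FC 0.59 ± 0.15, FDR = 0.0107) rose. Over the keratin list, 2 of 16 tested members rose and 9 fell, with a median log2 FC of -0.51, against 2 and 7 with the GC offset. The major simple-epithelial keratins KRT8 and KRT18 did not pass the test, at 8679 and 9191 CPM and 5573 and 5823 CPM with shRBM10#2. KRT19, of the same kind, was at 4630.4 and 4342 CPM against 3611 and 3799 CPM (log2 FC -0.28 ± 0.059, FDR = 0.00456), a call that was lost with the GC offset (-0.13, FDR = 0.102).

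The other falls of that size at 10 CPM or more included genes of signaling, the cytoskeleton and the matrix, a description of single genes that was not tested as a theme. FAM83A, a scaffold-like protein linked to EGFR and RAF signaling, was at 91.8 and 91.4 CPM with shScr and 30.3 and 29.7 CPM with shRBM10#2 (log2 FC -1.61 ± 0.059, FDR = 6.27e-08). LCP1, the actin-bundling protein L-plastin, was at 129.6 and 146 and 59.8 and 64 CPM (log2 FC -1.16 ± 0.067, FDR = 2.70e-06). HBEGF, a ligand of EGFR, was at 21.5 and 17.6 and 7.46 and 9.16 CPM (log2 FC -1.24 ± 0.12, FDR = 6.04e-05). The replicates of each condition lay close together in these genes and the conditions did not overlap. EFNB2, the ligand ephrin-B2, was at 35.2 and 39.7 CPM against 18.6 and 18.9 CPM (log2 FC -1.0 ± 0.079, FDR = 1.52e-05), and UBE2L6, the conjugating enzyme for ISG15, was at 41.6 and 37.8 against 19.2 and 20.4 CPM (log2 FC -1.01 ± 0.077, FDR = 1.26e-05). HSPG2, the basement membrane proteoglycan perlecan, was at 60.9 and 69 against 32.8 and 27.9 CPM (log2 FC -1.10 ± 0.086, FDR = 1.52e-05).

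Of the 9 genes that met the criteria upward at 10 CPM or more, 8 are described here and the readthrough HNRNPUL2-BSCL2 below. ALDH1A1, a retinaldehyde dehydrogenase, was at 131 and 138 CPM with shScr and 337 and 305 CPM with shRBM10#2 (log2 FC 1.25 ± 0.062, FDR = 7.81e-07). CP, the copper-carrying ferroxidase ceruloplasmin, was at 10.5 and 12.4 and 39.3 and 27.1 CPM (log2 FC 1.53 ± 0.15, FDR = 6.04e-05), and its shRBM10#2 replicates lay further apart than those of ALDH1A1. MT1F, a metallothionein that binds zinc and copper, was at 10.3 and 14.1 and 30.7 and 25.7 CPM (log2 FC 1.21 ± 0.13, FDR = 8.27e-05). All of these libraries with shRBM10#2 exceeded both controls. Rises also came from DHRS9, a retinol dehydrogenase (log2 FC 1.18 ± 0.11, FDR = 3.15e-05), FZD4, a receptor of Wnt ligands and norrin (log2 FC 1.18 ± 0.10, FDR = 2.87e-05), ACOX2, a peroxisomal oxidase of bile acid intermediates (log2 FC 1.07 ± 0.10, FDR = 4.73e-05), and SERPIND1, the thrombin inhibitor heparin cofactor II (log2 FC 1.02 ± 0.10, FDR = 6.91e-05). SPDEF, a transcription factor of goblet and secretory cells, was at 7.85 and 8.26 CPM against 18.1 and 16.2 CPM (log2 FC 1.09 ± 0.10, FDR = 3.38e-05). AGR2, a disulfide isomerase needed for mucin folding, rose by less than the criteria ask and was at 67.3 and 63 against 123 and 114 CPM (log2 FC 0.86 ± 0.062, FDR = 1.14e-05).

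**Figure D3:**
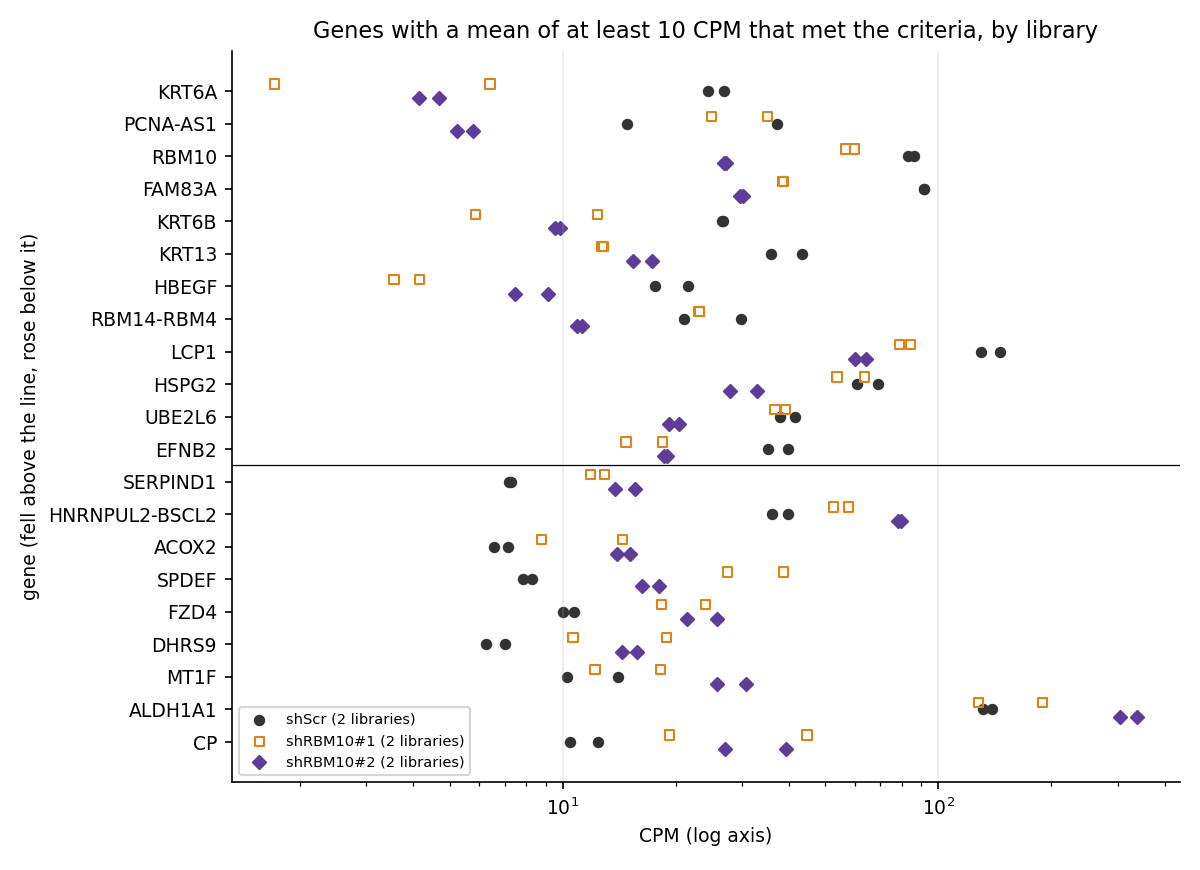
Level in CPM (horizontal axis, log scale) in each of the 6 libraries for the 21 genes with a mean of at least 10 CPM that met the criteria, with falls above the line and rises below it. Circles stand for shScr, squares for shRBM10#1 and diamonds for shRBM10#2, and both diamonds lie on the same side of both circles in every gene shown.

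Several of the genes with the smallest p-values or largest changes are annotation cases. COMMD3-BMI1, a readthrough transcript of adjacent genes, had 0 counts in both shScr libraries and 247 and 248 counts with shRBM10#2, at least 71.8-fold higher when the floor is set at 3 counts per library. The separate genes did not pass the test, with COMMD3 at 10.9 and 10.1 and 12 and 13.3 CPM and BMI1 at 26 and 27.1 and 28.9 and 26.3 CPM. SRGAP2C, a copy almost identical to SRGAP2, went from 0 in both controls to 195 and 108 counts, at least 44.1-fold higher, while SRGAP2 itself was at 90.4 and 97 against 77.9 and 77.2 CPM (log2 FC -0.28 ± 0.057, FDR = 0.00392), so the assignment of these reads is uncertain. HNRNPUL2-BSCL2, another readthrough, rose from 39.9 and 36 to 78.1 and 79.7 CPM (log2 FC 1.05 ± 0.066, FDR = 5.71e-06). Its partner HNRNPUL2 fell (log2 FC -0.29 ± 0.060, FDR = 0.00387), and BSCL2 did not pass the test (log2 FC -0.029 ± 0.062, FDR = 0.759). RBM14-RBM4 fell from 21 and 29.8 to 11.3 and 10.9 CPM (log2 FC -1.20 ± 0.14, FDR = 1.27e-04). RBM14 (log2 FC -0.42 ± 0.057, FDR = 3.10e-04) and RBM4 (log2 FC -0.23 ± 0.054, FDR = 0.00739) fell as well. PCNA-AS1, antisense to PCNA, fell from 37.2 and 14.8 to 5.76 and 5.25 CPM (log2 FC -2.24 ± 0.33, FDR = 5.28e-04), and without a stated strand protocol its reads cannot be told apart from those of PCNA. Of the 204 genes that met the criteria, 18 carried a symbol that joins 2 gene symbols, 10 higher and 8 lower, and 28 were annotated as antisense, lincRNA or processed transcripts, 22 higher and 6 lower. How common such symbols and types are among all genes tested was not counted, so these numbers describe the 204 genes only. VMA21, an assembly factor of the vacuolar proton pump, is an ordinary coding gene among the smallest p-values, at 91 and 91.5 CPM against 151 and 151 CPM (log2 FC 0.73 ± 0.051, FDR = 1.12e-05).

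Some hepatocyte genes had higher counts with shRBM10#2, all at low level. ALB, the serum albumin gene, had 0 counts in both shScr libraries and 77 and 94 counts with shRBM10#2, at least 24.8-fold higher against a floor of 3 counts per library. With shRBM10#1 it had 2 and 1 counts. Over 15 hepatocyte genes chosen after ALB was seen, the summed level was 0.518 and 0.365 CPM with shScr, 0.282 and 0.481 CPM with shRBM10#1, and reached 4.86 and 5.54 CPM with shRBM10#2. The number of these genes above 0 went from 6 and 7 with shScr to 14 and 14 with shRBM10#2. AFP, the fetal albumin relative, had 0 and 0 counts against 7 and 16, and APOB, the structural protein of liver lipoproteins, had 0 and 0 counts against 17 and 9. Carry-over of reads or RNA from another sample was not tested, so these counts cannot be assigned to the PC-9 cells with certainty. Their part in the rises of CP and SERPIND1, which the liver also makes, was not tested either.

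Genes of amino acid supply fell far more often than they rose. Shortage of amino acids activates the kinase GCN2 and with it the transcription factor ATF4, which turns on amino acid synthesis, transport and tRNA charging. ASNS, asparagine synthetase, was at 56.4 and 41.2 CPM with shScr and 27.5 and 27.5 CPM with shRBM10#2 (log2 FC -0.83 ± 0.12, FDR = 4.26e-04). PSAT1, the transaminase of serine synthesis, was at 305 and 243 and 194 and 191 CPM (log2 FC -0.51 ± 0.086, FDR = 0.00116). DDIT4, an inhibitor of mTORC1 that responds to stress, was at 467 and 396 and 250.5 and 258 CPM (log2 FC -0.77 ± 0.073, FDR = 4.26e-05). STC2, a secreted glycoprotein under the same control, was at 379 and 326 and 213 and 201 CPM (log2 FC -0.77 ± 0.072, FDR = 3.74e-05). The controls differed from each other by more than the knockdown libraries did, but neither overlapped with them. Of 18 tested genes in the list of ATF4 targets and amino acid response genes, 0 rose and 11 fell, with a median log2 FC of -0.30, and the GC offset gave 2 and 9.

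Among amino acid transporters, 0 of 10 rose and 5 fell, with a median of -0.34, against 0 and 7 with the GC offset. SLC7A5, the light chain of the exchanger that takes up leucine, was at 727 and 643 CPM against 380.5 and 361 CPM (log2 FC -0.89 ± 0.066, FDR = 1.18e-05). Its heavy chain SLC3A2 was at 503 and 397 against 288 and 292 CPM (log2 FC -0.64 ± 0.089, FDR = 4.18e-04). SLC7A1, the carrier of arginine and lysine, was at 264 and 252 against 172 and 168 CPM (log2 FC -0.60 ± 0.053, FDR = 2.87e-05). The glutamine carrier SLC1A5 had the smallest change of those named here (log2 FC -0.46 ± 0.057, FDR = 2.13e-04). Cytosolic tRNA synthetases followed, with 0 of 20 up, 11 down, a median of -0.24, and 1 and 13 with the GC offset. AARS, which charges alanine tRNA, was at 346 and 323 against 185 and 189 CPM (log2 FC -0.84 ± 0.056, FDR = 8.17e-06), MARS for methionine fell by less (log2 FC -0.56 ± 0.057, FDR = 6.28e-05), and CARS for cysteine (log2 FC -0.54 ± 0.067, FDR = 1.88e-04) and VARS for valine (log2 FC -0.49 ± 0.060, FDR = 1.79e-04) fell likewise. The enzymes that fell were a subset, since 9 of the 20 did not pass the test.

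**Figure D4:**
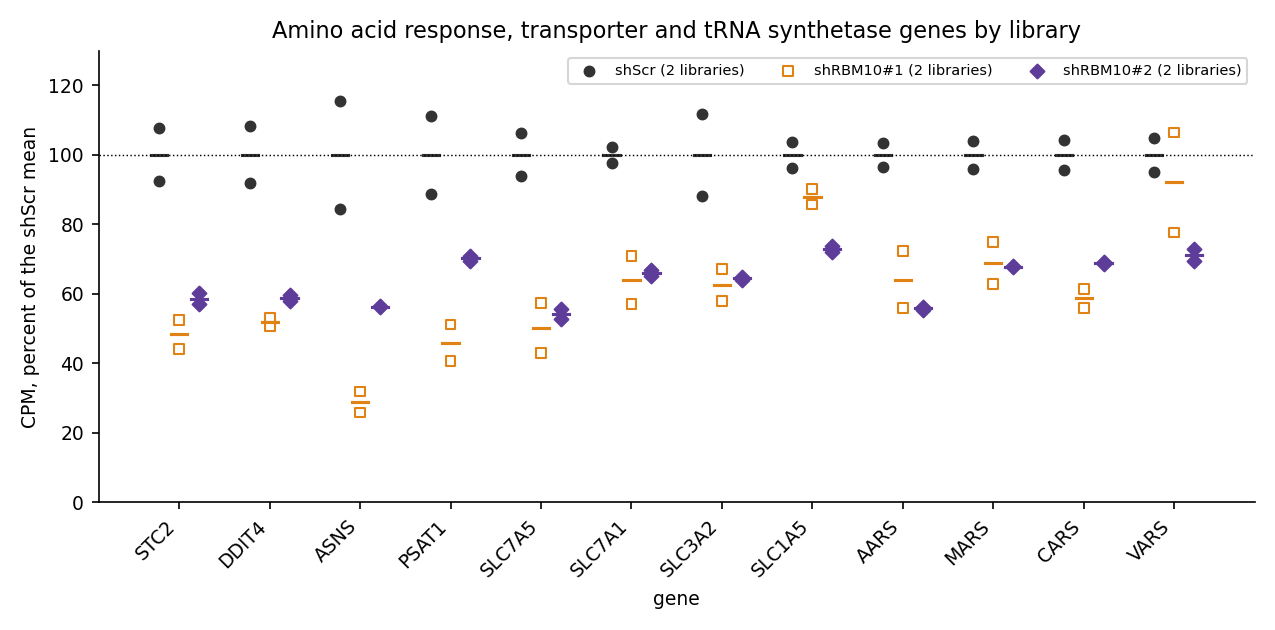
Level in each of the 6 libraries as a percentage of the mean CPM of the 2 shScr libraries (vertical axis) for the 12 genes of amino acid response, transport and tRNA charging with values given, where short bars are means of the 2 libraries of a condition. The shRBM10#2 libraries lie below both shScr libraries in every gene. Both shRBM10#1 libraries lie lower still in ASNS, PSAT1, STC2, DDIT4 and CARS, and above both shRBM10#2 libraries in SLC1A5 and VARS.

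Promoters of 3 of these genes are printed because they hold the letters TGATGNAA, the core of the site that ATF4 binds together with C/EBP proteins, on either strand within 250 bases before to 50 bases after the start of the gene. The matches are in capitals, and the sequences are from RefSeq (GRCh38.p14), 5′ to 3′ on the gene's strand. The ASNS promoter at chr7:97872359-97872658 (minus strand) holds it 68 bases before the start, SLC7A1 at chr13:29595639-29595938 (minus strand) holds it 7 bases after the start, and SLC3A2 at chr11:62881449-62881748 (plus strand) holds it on the reverse strand 37 bases after the start.
ASNS: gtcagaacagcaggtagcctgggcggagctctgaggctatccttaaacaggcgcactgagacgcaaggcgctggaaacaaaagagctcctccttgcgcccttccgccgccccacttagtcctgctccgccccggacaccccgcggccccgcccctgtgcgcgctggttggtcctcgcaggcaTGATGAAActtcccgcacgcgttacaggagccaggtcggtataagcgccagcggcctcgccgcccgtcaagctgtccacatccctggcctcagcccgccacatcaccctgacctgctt
SLC7A1: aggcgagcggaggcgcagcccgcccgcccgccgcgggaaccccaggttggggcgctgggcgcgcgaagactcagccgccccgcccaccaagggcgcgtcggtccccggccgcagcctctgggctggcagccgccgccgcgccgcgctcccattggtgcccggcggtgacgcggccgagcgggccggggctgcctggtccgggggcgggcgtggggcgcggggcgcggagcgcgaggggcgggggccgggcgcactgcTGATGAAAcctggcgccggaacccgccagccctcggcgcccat
SLC3A2: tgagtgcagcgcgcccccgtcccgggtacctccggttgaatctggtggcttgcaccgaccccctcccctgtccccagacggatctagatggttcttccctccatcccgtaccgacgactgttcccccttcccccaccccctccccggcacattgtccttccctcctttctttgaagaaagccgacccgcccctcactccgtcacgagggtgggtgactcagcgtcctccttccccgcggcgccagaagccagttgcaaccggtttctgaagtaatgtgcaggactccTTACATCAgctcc
The letters were in 2 of 15 promoters of the ATF4 list and in 3 of 9 transporter promoters, compared with 170 of 10408 promoters of tested genes (1.63%). A match is a description and not evidence of binding, and a promoter without it may be regulated from elsewhere. The AP-1 letters TGANTCA were in 505 of the 10408 (4.85%) and the NRF2 letters TGACNNNGC in 1576 (15.1%), with 4 of 18 promoters of the NRF2 list holding the latter.

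Cytoskeleton and matrix genes fell more often than they rose. Of 28 tested genes of the actin cytoskeleton and focal adhesions, 1 rose and 18 fell, with a median log2 FC of -0.33, against 2 and 15 with the GC offset. FLNA, filamin A, a crosslinker of actin at high abundance, was at 2519 and 2624 CPM with shScr and 1539 and 1542 CPM with shRBM10#2 (log2 FC -0.74 ± 0.055, FDR = 1.18e-05). MSN, moesin, which ties actin to the membrane, was at 235 and 232 and 138 and 137 CPM (log2 FC -0.77 ± 0.051, FDR = 8.17e-06). The conditions were well separated in both of these, and RDX, the related radixin, was separated as well, at 188 and 201 against 116 and 118 CPM (log2 FC -0.74 ± 0.054, FDR = 1.18e-05). MYL12B, a myosin regulatory light chain, was the member that rose (log2 FC 0.35 ± 0.076, FDR = 0.00524), and the group gave 3 and 20 without shScr 1. ACTG1, cytoplasmic actin, was among the genes with the largest fall in CPM, from 2514 and 2218 to 1792 and 1885 (log2 FC -0.37 ± 0.067, FDR = 0.00194).

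Of laminins, collagens and other matrix genes, 0 of 22 rose and 14 fell, with a median of -0.47, against 1 and 12 with the GC offset. LAMA3, a laminin alpha chain of the epithelial basement membrane, was at 42 and 42.8 CPM against 23 and 23.3 CPM (log2 FC -0.87 ± 0.066, FDR = 1.24e-05). AGRN, the proteoglycan agrin, was at 792 and 796 against 482 and 483 CPM (log2 FC -0.72 ± 0.052, FDR = 1.18e-05). In the same basement membrane system the integrin genes gave 2 rises and 5 falls of 12, with a median of -0.14. ITGB4, the laminin receptor subunit of hemidesmosomes, fell (log2 FC -0.59 ± 0.052, FDR = 2.97e-05), as did its partner ITGA6 (log2 FC -0.44 ± 0.058, FDR = 2.73e-04) and ITGA3 (log2 FC -0.40 ± 0.055, FDR = 3.44e-04), whereas ITGB6 (log2 FC 0.39 ± 0.066, FDR = 0.00125) and ITGB8 (log2 FC 0.75 ± 0.11, FDR = 4.87e-04), subunits of receptors that activate latent TGF-beta, rose. COL17A1, the hemidesmosomal collagen, was picked after its values were seen and was at 3.17 and 2.73 CPM against 0.350 and 0.731 CPM (log2 FC -2.44 ± 0.31, FDR = 2.39e-04). Matrix proteases and their inhibitors were mixed, 2 up and 4 down of 16, and 2 and 2 without shRBM10#2 replicate 1, with TIMP3 up (log2 FC 0.43 ± 0.055, FDR = 2.39e-04) and SERPINE2 down (log2 FC -0.49 ± 0.053, FDR = 8.21e-05).

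Immediate early genes, which respond within minutes to growth factor signaling, gave 0 rises and 9 falls of 16, with a median of -0.28, against 1 and 8 with the GC offset and 2 and 9 without shScr 1. JUN was at 154 and 154 CPM with shScr and 100.4 and 101 CPM with shRBM10#2 (log2 FC -0.62 ± 0.051, FDR = 2.23e-05). FOSL2, a partner of JUN in AP-1, was at 110.3 and 119 and 69.3 and 72.3 CPM (log2 FC -0.70 ± 0.059, FDR = 2.43e-05). KLF4, a zinc-finger factor of epithelial differentiation, was at 63.2 and 56.2 and 35.1 and 32.3 CPM (log2 FC -0.83 ± 0.076, FDR = 3.38e-05). Each fell to well below both control libraries. EGFR itself was at 255 and 280.0 CPM against 208 and 202 CPM and fell by a smaller amount (log2 FC -0.38 ± 0.058, FDR = 6.37e-04), and in the list of ERBB receptors and ligands 0 of 11 rose and 4 fell, with a median of -0.22. Rises and falls of these numbered 0 and 2 without shRBM10#2 replicate 2 or by DESeq2 and 2 and 3 with the GC offset. Feedback genes of the ERK pathway went both ways, 4 up and 3 down of 15, and 3 and 4 without shScr 1, 5 and 7 without shScr 2, 1 and 2 without shRBM10#2 replicate 1 and 0 and 2 by limma on TPM. DUSP6, the ERK phosphatase, rose (log2 FC 0.27 ± 0.057, FDR = 0.00387), and the receptor EPHA2 fell (log2 FC -0.66 ± 0.069, FDR = 7.30e-05), as did CCND1, cyclin D1 (log2 FC -0.32 ± 0.058, FDR = 0.00178). Of receptors that can bypass EGFR, 2 of 9 rose and 1 fell, against 0 and 1 without shRBM10#2 replicate 1 or by limma on TPM, and MET did not pass the test at 55.2 and 59.2 against 64.1 and 58 CPM (log2 FC 0.091 ± 0.068, FDR = 0.336). RET, a receptor tyrosine kinase, rose at a low level, from 0.646 and 0.698 to 1.70 and 1.12 CPM (log2 FC 1.06 ± 0.32, FDR = 0.0272).

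YAP and TEAD targets gave 0 rises and 5 falls of 16, with a median of -0.21, against 1 and 9 without shScr 1 and 0 and 3 without either shRBM10#2 library or by limma on TPM, and AJUBA, a LIM protein of cell junctions, was among the falls (log2 FC -0.55 ± 0.079, FDR = 5.14e-04). TGF-beta and BMP response genes gave 3 rises and 6 falls of 17, and 2 and 3 without shRBM10#2 replicate 1, 3 and 3 without shRBM10#2 replicate 2 or by DESeq2 and 1 and 3 by limma on TPM. The receptor TGFBR2 was at 45.5 and 51 CPM against 81.2 and 77.2 CPM (log2 FC 0.71 ± 0.068, FDR = 4.29e-05), whereas ID1, a target of BMP signals, was at 69.6 and 50.3 against 35.2 and 41.1 CPM (log2 FC -0.65 ± 0.13, FDR = 0.00243), and INHBA, the activin subunit, fell (log2 FC -0.23 ± 0.070, FDR = 0.028). Mesenchymal genes gave 2 rises and 1 fall of 10, against 2 and 3 without shScr 1 and 1 and 2 without shRBM10#2 replicate 1, with CD44, a hyaluronan receptor, up (log2 FC 0.29 ± 0.053, FDR = 0.00178) and LGALS1, galectin-1, down (log2 FC -0.42 ± 0.063, FDR = 5.89e-04). Junction genes gave 4 rises and 9 falls of 21, and 1 and 6 by limma on TPM, with OCLN, occludin of tight junctions, up (log2 FC 0.42 ± 0.073, FDR = 0.00135) and DSC2, a desmosomal cadherin, down (log2 FC -0.44 ± 0.072, FDR = 9.33e-04).

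The Bcl-2 family was examined by gene totals because the study concerns cell death under EGFR inhibition. BCL2L1, which encodes Bcl-xL and its short pro-apoptotic isoform together, was at 235 and 229 CPM with shScr and 168 and 168 CPM with shRBM10#2 (log2 FC -0.46 ± 0.051, FDR = 1.00e-04). MCL1, another inhibitor of apoptosis, was at 272 and 278 and 230.1 and 225 CPM (log2 FC -0.28 ± 0.051, FDR = 0.00205). BCL2L11, the BH3-only protein BIM, was at 25 and 24.7 and 37 and 35.6 CPM and rose (log2 FC 0.54 ± 0.068, FDR = 2.07e-04). The gene totals of BCL2L1 and MCL1 were thus lower and that of BCL2L11 higher in both knockdown libraries. The BCL2L1 total joins isoforms of opposite effect, so it does not give the level of Bcl-xL or the ratio of the isoforms. Of 4 tested genes listed as anti-apoptotic, BCL2L1 among them, 0 rose and 2 fell. Among BH3-only genes and effectors 1 of 11 rose and 3 fell, the pore-former BAX with BAD and BOK, and none of these 3 falls passed with the GC offset (BAX log2 FC -0.13, FDR = 0.173). The group gave 1 and 0 without shRBM10#2 replicate 1 and 2 and 0 with the GC offset. Of caspases, IAPs and death receptors, 5 of 20 rose and 0 fell, with a median of 0.077, against 2 and 0 without either shRBM10#2 library, 0 and 0 by limma on TPM and 3 and 1 with the GC offset. CASP8, the initiator caspase of death receptors, was at 31.5 and 28.3 CPM against 37.3 and 40 CPM (log2 FC 0.37 ± 0.075, FDR = 0.00353). CASP9 did not pass the test at 6.10 and 5.44 against 5.55 and 5.27 CPM (log2 FC -0.095 ± 0.13, FDR = 0.623).

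Nuclear genes of oxidative phosphorylation rose more often than they fell. Of complexes II to IV, 15 of 23 tested members rose and 1 fell, with a median log2 FC of 0.31, against 14 and 1 with the GC offset and 15 and 3 without shScr 2. COX6C, a subunit of cytochrome c oxidase, was at 118 and 104 CPM with shScr and 173 and 185 CPM with shRBM10#2 (log2 FC 0.69 ± 0.067, FDR = 4.94e-05). UQCR10, a small subunit of complex III, was at 69.7 and 63.7 and 92.8 and 88.7 CPM (log2 FC 0.44 ± 0.062, FDR = 4.32e-04). CYC1, cytochrome c1, was the member that fell (log2 FC -0.43 ± 0.063, FDR = 5.40e-04). Of ATP synthase genes 9 of 17 rose and 0 fell, with a median of 0.21, where ATP5E had the largest rise (log2 FC 0.59 ± 0.086, FDR = 5.26e-04) and ATP5F1 was at 191 and 192 against 248 and 257 CPM (log2 FC 0.40 ± 0.052, FDR = 2.62e-04). ATP5C1, the gamma subunit of its rotor, was at 136 and 133 against 168 and 172 CPM (log2 FC 0.34 ± 0.051, FDR = 6.96e-04) and at 83.3 and 82.9 CPM with shRBM10#1. Complex I gave 12 rises and 3 falls of 38, with a median of 0.042, and its counts moved with the libraries, to 20 and 3 without shScr 1, 12 and 10 without shScr 2, 12 and 0 without shRBM10#2 replicate 1, 8 and 1 without shRBM10#2 replicate 2, 10 and 1 by limma on TPM and 14 and 0 with the GC offset. NDUFB4, an accessory subunit, was at 113 and 104 CPM against 146 and 151 CPM (log2 FC 0.45 ± 0.057, FDR = 2.39e-04).

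**Figure D5:**
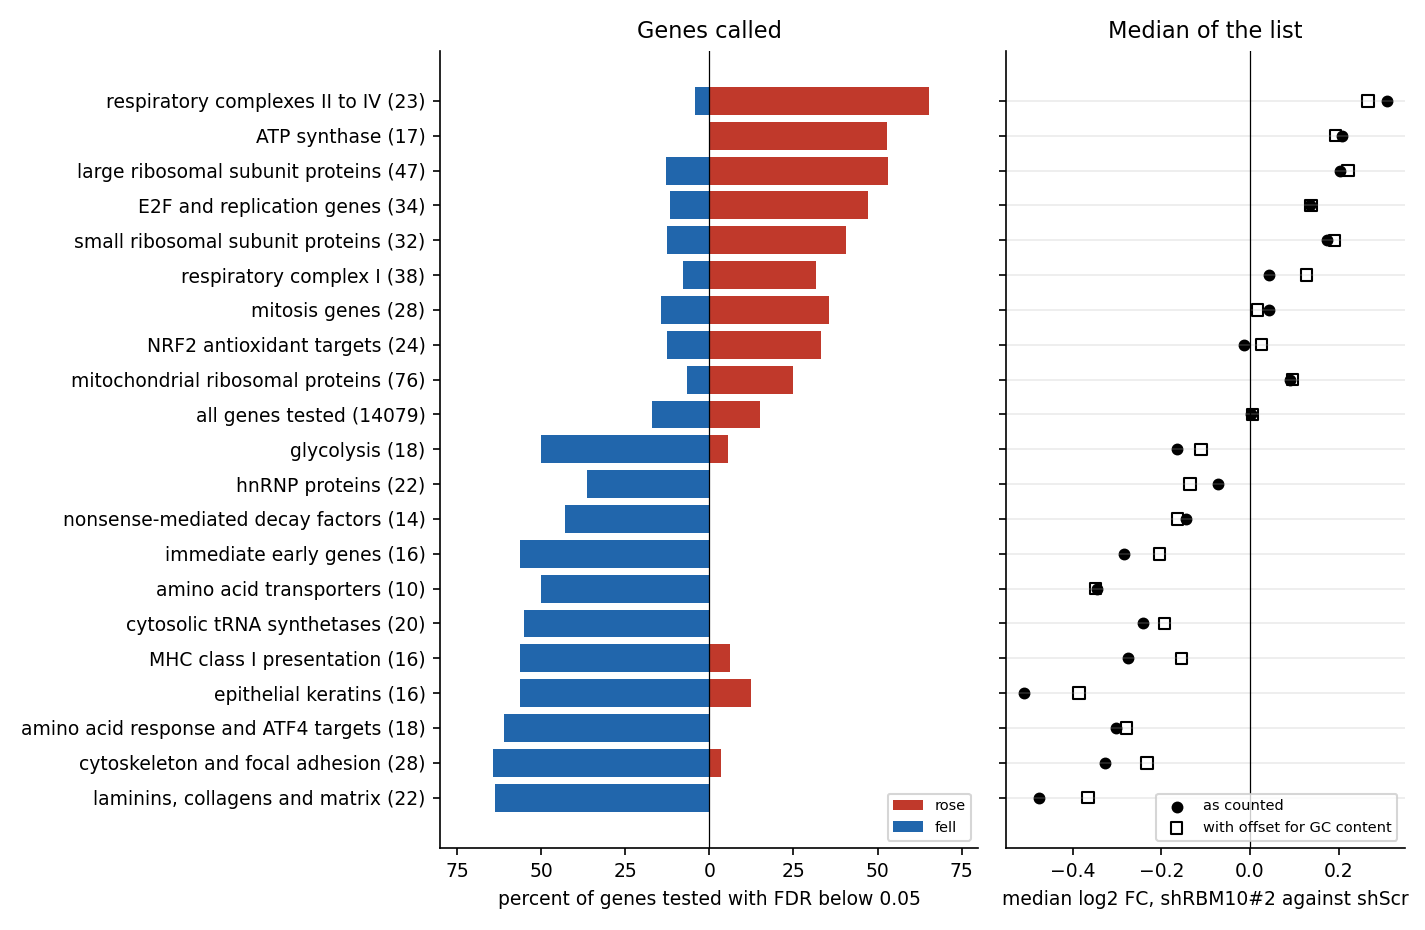
Percentage of tested members that rose (to the right) and fell (to the left) in 20 gene lists and in all genes tested (left panel), with the number tested in brackets, and the median log2 FC as counted (points) and with the offset for GC (squares) in the right panel. Respiratory complexes II to IV have the highest median of the lists drawn, 0.31, and keratins the lowest, -0.51.

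More ribosomal protein genes rose than fell, by small amounts. Of the large subunit 25 of 47 rose and 6 fell, with a median of 0.20, and of the small subunit 13 of 32 rose and 4 fell, with a median of 0.17. The large subunit gave 38 and 5 without shScr 1, 24 and 10 without shScr 2, 21 and 2 without shRBM10#2 replicate 1, 12 and 3 without shRBM10#2 replicate 2, 14 and 3 by limma on TPM and 26 and 3 with the GC offset. The small subunit gave 16 and 3 with the GC offset, 15 and 9 without shScr 2 and 12 and 2 without shRBM10#2 replicate 1. RPL36 was at 266 and 227 CPM with shScr and 358 and 369 CPM with shRBM10#2 (log2 FC 0.56 ± 0.071, FDR = 2.25e-04), and RPS24 was at 496 and 444 and 666 and 709 CPM (log2 FC 0.55 ± 0.065, FDR = 1.65e-04). RPL21 was at 289.5 and 236 CPM against 132 and 169 CPM (log2 FC -0.81 ± 0.11, FDR = 3.53e-04), RPS9 was at 1375 and 1309.5 against 1013 and 1025 CPM (log2 FC -0.40 ± 0.055, FDR = 3.73e-04), and both fell. These genes have many processed pseudogenes with nearly the same sequence, so their counts are uncertain, and the transcripts are short. EEF2, the translation elongation factor, fell from 2794 and 2934 to 2254 and 2392 CPM (log2 FC -0.30 ± 0.058, FDR = 0.0024), a call lost with the GC offset (-0.18, FDR = 0.0508). Mitochondrial ribosomal proteins gave 19 rises and 5 falls of 76, with a median of 0.091, led by MRPL33 (log2 FC 0.63 ± 0.076, FDR = 1.73e-04), and these counts went to 35 and 5 without shScr 1, 22 and 9 without shScr 2, 14 and 3 without shRBM10#2 replicate 1, 7 and 3 without shRBM10#2 replicate 2 and 7 and 4 by limma on TPM. Of snoRNA host genes, spliced RNAs whose introns carry small nucleolar RNAs, 4 of 18 rose and 0 fell, against 12 and 0 without shScr 1 and 2 and 0 by DESeq2, and SNHG16 was at 41.2 and 45.8 CPM against 83 and 79.3 CPM (log2 FC 0.90 ± 0.067, FDR = 1.18e-05).

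Replication genes under E2F control rose more often than they fell, 16 up and 4 down of 34, with a median of 0.14. TYMS, thymidylate synthase, was at 81.7 and 79.7 CPM with shScr and 121 and 121 CPM with shRBM10#2 (log2 FC 0.58 ± 0.053, FDR = 3.27e-05). PCNA, the sliding clamp of DNA polymerase, was at 279 and 289 and 391 and 379.9 CPM (log2 FC 0.44 ± 0.053, FDR = 1.72e-04). CCNE2, cyclin E2, was at 16.6 and 20.4 and 31.3 and 30 CPM (log2 FC 0.73 ± 0.093, FDR = 2.39e-04). Both knockdown libraries were above both controls in each, while POLD1, the catalytic subunit of DNA polymerase delta, fell (log2 FC -0.31 ± 0.051, FDR = 9.35e-04). The rises and falls of this group numbered 8 and 1 without either shRBM10#2 library and 5 and 2 by limma on TPM. Mitosis genes gave 10 rises and 4 falls of 28, against 8 and 6 with the GC offset and 11 and 7 without shScr 1, 7 and 1 without shRBM10#2 replicate 1, 6 and 0 without shRBM10#2 replicate 2 and 5 and 0 by limma on TPM, with CDK1, the mitotic kinase, at 219 and 216 CPM against 332 and 329 CPM (log2 FC 0.60 ± 0.051, FDR = 2.43e-05). Of cyclins D, CDK4/6 and CDK inhibitors 1 of 12 rose and 3 fell, against 3 and 4 without shScr 1 and 1 and 5 without shScr 2, and CDKN1A, the CDK inhibitor p21, was at 34.6 and 36.3 CPM against 22.2 and 19.3 CPM (log2 FC -0.78 ± 0.081, FDR = 7.30e-05). Histone genes that depend on replication gave 0 rises and 4 falls of 17, and 0 and 2 without shRBM10#2 replicate 1 or by DESeq2 and 1 and 9 by limma on TPM, with HIST3H2A at 11.1 and 8.62 against 4.36 and 4.46 CPM (log2 FC -1.16 ± 0.14, FDR = 1.87e-04). These mRNAs largely lack poly(A) tails and were counted at low level.

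CDKN1A is also a target of p53, and that list was split, 5 up and 7 down of 20, with a median of -0.12, and 2 and 6 by limma on TPM and 3 and 3 with the GC offset. SFN, the 14-3-3 sigma gene, fell (log2 FC -0.69 ± 0.061, FDR = 2.99e-05), whereas SESN1, a sestrin that restrains mTORC1, rose (log2 FC 0.66 ± 0.11, FDR = 9.69e-04). MDM2, the ligase of p53, rose (log2 FC 0.31 ± 0.088, FDR = 0.019), but not past the threshold with the offset (0.20, FDR = 0.0737).

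Among NRF2 antioxidant targets 8 of 24 rose and 3 fell, with a median of -0.013, against 10 and 6 without shScr 1, 8 and 7 without shScr 2, 5 and 2 without shRBM10#2 replicate 2, 4 and 2 by limma on TPM and 7 and 6 with the GC offset. NQO1, a quinone reductase, was at 1694 and 1577 CPM with shScr and 2312 and 2370.0 CPM with shRBM10#2 (log2 FC 0.52 ± 0.058, FDR = 1.20e-04) and had the largest rise in CPM of any gene with an FDR below 0.05. AKR1C2, an aldo-keto reductase, was at 823 and 733 and 1185 and 1208 CPM (log2 FC 0.62 ± 0.064, FDR = 7.20e-05), although AKR1C1 and AKR1C3, which also rose (log2 FC 0.41 ± 0.059, FDR = 4.66e-04, and log2 FC 0.40 ± 0.056, FDR = 4.36e-04), are close enough in sequence to share reads with it. Of the 3 metallothioneins tested 2 rose and 0 fell, MT1F and MT2A, the latter at 453 and 309.6 CPM against 540.3 and 588 CPM with the controls far apart (log2 FC 0.56 ± 0.13, FDR = 0.00645). Aldehyde dehydrogenases gave 5 rises and 2 falls of 16, with a median of 0.12, against 6 and 4 without shScr 1, 2 and 2 without either shRBM10#2 library and 1 and 2 by limma on TPM, and ALDH1A1 had the largest rise among them.

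Glycolysis genes gave 1 rise and 9 falls of 18, with a median of -0.17, against 3 and 12 without shScr 1 and 3 and 6 with the GC offset. SLC16A3, the lactate exporter MCT4, was at 42.8 and 40.6 CPM with shScr and 23.9 and 23.9 CPM with shRBM10#2 (log2 FC -0.81 ± 0.068, FDR = 2.43e-05). The glucose transporter SLC2A1 was at 288 and 278 and 209.8 and 212 CPM (log2 FC -0.42 ± 0.052, FDR = 1.87e-04), and hexokinase HK2 fell too (log2 FC -0.48 ± 0.074, FDR = 6.89e-04). TPI1, triose phosphate isomerase, was the member that rose (log2 FC 0.16 ± 0.055, FDR = 0.047). Hypoxia response genes went both ways, 4 up and 6 down of 17, and 2 and 3 without shRBM10#2 replicate 2 and 2 and 4 by limma on TPM, with EGLN3, an oxygen-sensing prolyl hydroxylase, down (log2 FC -0.63 ± 0.065, FDR = 7.20e-05) and the lipid droplet protein HILPDA up (log2 FC 0.45 ± 0.080, FDR = 0.00176). Cholesterol genes gave 5 rises and 9 falls of 26, and 2 and 7 without shRBM10#2 replicate 2, 0 and 7 by limma on TPM and 2 and 6 with the GC offset, with LSS, lanosterol synthase, at 67.5 and 62.9 CPM against 40.7 and 43.3 CPM (log2 FC -0.64 ± 0.066, FDR = 7.28e-05) and lower in both knockdown libraries. Fatty acid synthesis gave 1 rise and 3 falls of 12, against 1 and 5 without shScr 1 and 3 and 4 without shScr 2, and FASN fell (log2 FC -0.39 ± 0.053, FDR = 3.64e-04).

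Of 22 hnRNP genes 0 rose and 8 fell, with a median of -0.072, against 0 and 10 with the GC offset and 0 and 5 without shRBM10#2 replicate 2, and HNRNPL, which binds CA-rich RNA, was at 420.4 and 457 CPM against 332 and 327 CPM (log2 FC -0.42 ± 0.057, FDR = 3.65e-04). All 22 had a mean of at least 169 CPM. Among all genes tested, 32.5% of those in the tenth highest in level fell, so the share of falls was near that of genes of like level. Of 14 nonsense-mediated decay factors 0 rose and 6 fell, with a median of -0.15, against 0 and 7 with the offset. UPF1, the helicase at the center of that pathway, was at 269 and 268 against 217 and 217 CPM (log2 FC -0.31 ± 0.051, FDR = 0.00101), and UPF3B was at 53.1 and 53.1 against 42 and 43.8 CPM (log2 FC -0.31 ± 0.062, FDR = 0.00303). SR proteins and TRA2 gave 0 rises and 3 falls of 13, against 2 and 3 without shScr 1, 0 and 0 without either shRBM10#2 library and 0 and 1 by limma on TPM, and of the CLK and SRPK kinases that phosphorylate them 2 of 6 rose and 0 fell, with CLK2 at 20.9 and 19.1 against 27.8 and 28.2 CPM (log2 FC 0.48 ± 0.077, FDR = 8.76e-04).

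Cytosolic heat shock genes gave 1 rise and 7 falls of 14, with a median of -0.16, and 0 and 3 without shRBM10#2 replicate 2, and HSP90AB1, the abundant chaperone, was at 2609 and 2574 CPM against 2165 and 2169 CPM (log2 FC -0.26 ± 0.053, FDR = 0.00369). Chaperones of the endoplasmic reticulum and unfolded protein response genes gave 1 rise and 4 falls of 21, against 5 and 6 without shScr 1, 4 and 6 without shScr 2 and 1 and 2 without shRBM10#2 replicate 2, with HSPA5, the chaperone BiP, down (log2 FC -0.24 ± 0.055, FDR = 0.00648). Proteasome genes gave 4 rises and 9 falls of 32, against 7 and 10 without shScr 1, 2 and 2 without shRBM10#2 replicate 1, 1 and 3 without shRBM10#2 replicate 2, 0 and 5 by limma on TPM and 1 and 8 with the GC offset, with the base subunit PSMD2 down (log2 FC -0.31 ± 0.054, FDR = 0.00126). Lysosomal genes gave 4 rises and 8 falls of 27, against 7 and 8 without shScr 1, 2 and 5 without shRBM10#2 replicate 1, 3 and 3 without shRBM10#2 replicate 2, 0 and 6 by limma on TPM and 5 and 4 with the GC offset, with GLA, alpha-galactosidase A, at 52 and 57.1 CPM against 34.5 and 35.1 CPM (log2 FC -0.65 ± 0.067, FDR = 7.24e-05).

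S100 and epithelial defense proteins gave 8 rises and 4 falls of 19, against 11 and 3 with the GC offset and 4 and 2 without shRBM10#2 replicate 1 and 5 and 3 without shRBM10#2 replicate 2. S100A9, a subunit of calprotectin, was at 488 and 474 CPM with shScr and 753 and 738 CPM with shRBM10#2 (log2 FC 0.63 ± 0.053, FDR = 2.43e-05), and SLPI, a protease inhibitor of airway fluid, was at 152 and 141 and 229 and 211 CPM (log2 FC 0.59 ± 0.061, FDR = 7.28e-05). DEFB1, a beta-defensin, rose at a lower level, from 5.60 and 4.74 to 12.6 and 12.3 CPM (log2 FC 1.26 ± 0.12, FDR = 3.38e-05). In the same list the complement genes C3 (log2 FC -0.80 ± 0.068, FDR = 2.43e-05) and CFB (log2 FC -0.89 ± 0.076, FDR = 2.43e-05) fell, and both control libraries lay above both knockdown libraries. MHC class I presentation genes gave 1 rise and 9 falls of 16, with a median of -0.28, where TAP1, a peptide transporter subunit, fell (log2 FC -0.40 ± 0.063, FDR = 8.35e-04) and B2M, the invariant light chain, was at 363 and 336 against 432 and 437 CPM and rose (log2 FC 0.31 ± 0.057, FDR = 0.0019), not past the threshold with the offset (0.17, FDR = 0.0687). Genes of NF-kB feedback and cytokines gave 1 rise and 5 falls of 17, against 4 and 6 without shScr 1, 1 and 3 without shRBM10#2 replicate 2 and 3 and 5 with the GC offset, with the cytokine LIF down (log2 FC -0.57 ± 0.070, FDR = 1.87e-04). Interferon-stimulated genes gave 1 rise and 3 falls of 26, against 2 and 1 without shScr 1, 1 and 5 without shScr 2, 0 and 1 without shRBM10#2 replicate 2 and 1 and 1 by DESeq2 or with the GC offset. Lung lineage and secretory genes gave 5 rises and 4 falls of 18, with a median of 0.20, against 5 and 2 by DESeq2 and 6 and 2 by limma on TPM, and MUC5B, a gel-forming airway mucin, was at 12 and 13.4 CPM against 28.3 and 19 CPM (log2 FC 0.90 ± 0.15, FDR = 0.00133). The log2 FC of the list ran from -1.27 to 1.09, and 1 member met the criteria in each direction. SPDEF, AGR2 and MUC5B are all among the rises, and the falls are not named here.

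The hairpins were compared directly to ask which differences were particular to the deeper knockdown. Against shRBM10#1, 3711 of 14102 genes (26.3%) had an FDR below 0.05, 1601 higher (11.4%) and 2110 lower (15%) with shRBM10#2, and 161 (1.14%) met the criteria, 104 higher (0.737%) and 57 lower (0.404%). Of genes named above, ALDH1A1 was at 128 and 189 CPM with shRBM10#1 and higher with shRBM10#2 (log2 FC 1.02 ± 0.14, FDR = 0.00174), and HSPG2 (log2 FC -0.95 ± 0.10, FDR = 6.36e-04), UBE2L6 (log2 FC -0.94 ± 0.075, FDR = 2.93e-04) and AGRN (log2 FC -0.77 ± 0.064, FDR = 3.34e-04) were lower with shRBM10#2 than with shRBM10#1. With shRBM10#1, HSPG2 at 63.5 and 53.8 CPM and UBE2L6 at 36.7 and 39.3 CPM were close to shScr. The shRBM10#1 replicates of ALDH1A1 lay far apart, and it did not differ past the threshold from shScr by the same test (log2 FC 0.23, FDR = 0.334). That does not show a lack of response. KRT6A, at 6.40 and 1.71 CPM with shRBM10#1, did not differ past the threshold between the hairpins (log2 FC 0.15 ± 0.43, FDR = 0.822), nor did CP (log2 FC 0.043 ± 0.30, FDR = 0.931), SLC7A5 (log2 FC 0.11 ± 0.11, FDR = 0.482) or BCL2L1 (log2 FC -0.050 ± 0.055, FDR = 0.537), which does not show that they responded alike.

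In some genes the order went against the depth of knockdown. HBEGF was at 4.16 and 3.56 CPM with shRBM10#1, lower than with shRBM10#2 (log2 FC 1.11 ± 0.15, FDR = 0.00151), and ASNS was at 15.6 and 12.6 CPM, again lower (log2 FC 0.97 ± 0.10, FDR = 6.36e-04). PSAT1 (log2 FC 0.61 ± 0.093, FDR = 0.00221), STC2 (log2 FC 0.28 ± 0.081, FDR = 0.0315), DDIT4 (log2 FC 0.18 ± 0.058, FDR = 0.0439) and CARS (log2 FC 0.23 ± 0.071, FDR = 0.0378) were lower with shRBM10#1 too. SPDEF was at 27.5 and 38.7 CPM, higher than with shRBM10#2 (log2 FC -0.95 ± 0.14, FDR = 0.00206). The deeper loss of RBM10 was therefore not matched by a larger change of these genes. The hairpins differ in their targeted sequence as well as in depth, and the 2 cannot be told apart. Of the other amino acid genes drawn above, SLC1A5 (log2 FC -0.27 ± 0.058, FDR = 0.00967) and VARS (log2 FC -0.37 ± 0.12, FDR = 0.0457) were lower with shRBM10#2. The rest of those drawn did not differ past the threshold between the hairpins. COX6C was at 107 and 130.5 CPM with shRBM10#1 and higher with shRBM10#2 (log2 FC 0.60 ± 0.089, FDR = 0.00212), and SNHG16 was at 39.9 and 36.8 CPM and likewise higher with shRBM10#2 (log2 FC 1.08 ± 0.068, FDR = 9.30e-05).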

How the data were processed

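RNA of PC-9 cells that carried shScr or 1 of 2 hairpins against RBM10 was sequenced, with 2 libraries per condition. The authors quantified 51398 RefSeq isoforms with RSEM, and the submitters' processing notes name STAR 2.4, RSEM 1.2.29, edgeR and hg19. The deposited files hold an expected count, a TPM, an FPKM and an isoform percentage for each isoform, together with its length and effective length. The FPKM and percent columns that the authors deposited were not used here. The strand protocol and read length are not given in the sources used here. The methods of the study name parental PC-9 cells as control where the labels name shScr, and the labels were followed.

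Expected counts were summed over the isoforms of each of 26334 gene symbols, rounded to whole numbers and fitted with edgeR 4.0.16 (R 4.3.3). The fit used TMM scaling, the filterByExpr filter, glmQLFit and glmQLFTest on the 4 libraries compared. It had 2 residual degrees of freedom, and 9.56 prior degrees of freedom were borrowed across genes. Benjamini-Hochberg adjustment was over all genes tested, and the contrast of the hairpins was fitted likewise. Each SE given is the absolute log2 FC divided by the square root of the F statistic of that test. Symbols were matched to GENCODE 29 (GRCh38) for position and base composition, 25668 of them (97.5%), 24838 by RefSeq identifier and 830 by name alone. Alternatives were DESeq2 1.42.0, limma 3.58.1 on log2 of summed deposited TPM plus 1, other filters and scaling, an effective-length offset, all 6 libraries together, a replicate block and leaving out each library. A loess offset for percent GC (span 0.3) was chosen after the data were seen. The edgeR step was tested on simulated counts.

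The members and lists were chosen with earlier results of these data known. Genes named were the RBM10 paralogs, the leading genes at 10 CPM or more, those with the smallest p or the largest CPM difference, up to 4 called members per list and direction, a few apoptosis and receptor genes, and cell type markers. Some genes that the rule takes in are not reported here. Genes outside this rule are said to be chosen after their values were seen. The readthrough partners COMMD3, BMI1, HNRNPUL2, BSCL2, RBM14 and RBM4, as well as SRGAP2, the counts of the hepatocyte genes and the marker genes below the filter are of that kind. Totals per library of 31953729 to 37557507 expected counts set the counting error, and a floor of 3 counts covers that error only. Replicates differed beyond sampling noise in every condition. The chi-square over genes divided by its degrees of freedom was 9.70 for shScr, 12.3 for shRBM10#1 and 3.23 for shRBM10#2. Each library was counted as a sample, although this excess cannot tell separate cultures from technical differences between libraries.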

Additional observations from a re-analysis of the deposited data

Results flagged for a closer look

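A pair of genes moved in opposite directions with the 2 hairpins, each past an FDR of 0.05 against shScr, and differed between the hairpins by edgeR's quasi-likelihood test. ATP5C1, the gamma subunit gene of ATP synthase, was at 136 and 133 CPM with shScr, but 83.3 and 82.9 CPM in the shRBM10#1 libraries, against 168 and 172 CPM in those with shRBM10#2, and the log2 FC of shRBM10#2 against shRBM10#1 was 1.03 ± 0.057 (SE, FDR = 4.36e-05). Replicates lay within a few CPM of each other in all 3 conditions. INHBA, an activin subunit gene, was at 52.1 and 54.9 CPM with shScr, 80.4 and 78.6 CPM in the shRBM10#1 libraries and 48.3 and 43.3 CPM in those with shRBM10#2, and shRBM10#2 was lower than shRBM10#1 by a log2 FC of -0.79 ± 0.071 (SE, FDR = 4.47e-04). Both comparisons with shScr share the control libraries.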

How the results depend on the processing

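The count of 204 genes that met the criteria was 90 by DESeq2 and 44 by limma on summed TPM, ranged from 184 to 261 when a library was left out, and lay between 141 and 225 in the other alternatives. The count of 4530 genes with an FDR below 0.05 was 2088 by limma on TPM, 696 higher and 1392 lower with the median of all genes at -0.039, and ranged from 2416 to 5758 when a library was left out. Each fit with a lone library in a condition assumes that it varies like the other condition. The RBM10 log2 FC lay between -1.67 and -1.52 in all 15 alternatives, and between -1.674 and -1.624 with a library left out. The count of 161 genes that met the criteria between the hairpins was 77 by DESeq2. Whether replicate numbers pair the libraries is not stated. Deviations of same-numbered libraries correlated at -0.0118 between shScr and shRBM10#2, which cannot decide it because shScr 2 also stood apart in fragment length. With a replicate block 4489 genes had an FDR below 0.05 and 225 met the criteria. The block changed the call of 1 of the 136 called genes named, TPI1. Of these 136 genes, 111 kept direction and call in all 15 alternatives and 0 reversed. The call was lost by 8 with the GC offset, 14 by limma on TPM (RBM5 among them), 7 with the effective-length offset, 11 without shRBM10#2 replicate 1 and 7 without shRBM10#2 replicate 2. Among genes not past the threshold, the log2 FC of RBM6 went from -0.05 to 0.076 over libraries left out, that of CDH1 from -0.097 to 0.002, that of KRT18 from -0.059 to 0.006 and that of NAPSA from -0.18 to 1.217. The sign of RBM6 also turned with the effective-length offset (-0.05, and -0.049 with the replicate block), and by limma on TPM (-0.1), and that of KRT18 with the GC offset (0.098, and 0.098 with the replicate block). The causes were not tested. At these totals a gene under 1 CPM rests on few reads, and 99 of the 204 genes were of that kind.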

Other observations

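A few low-level regulators, chosen after their values were seen, changed by more than most. LRIG1, a membrane protein that restrains ERBB receptors, was at 2.28 and 3.04 CPM with shScr, 8.40 and 7.23 CPM in the shRBM10#2 libraries and 12.8 and 18.6 CPM in those with shRBM10#1, and it rose with shRBM10#2 (log2 FC 1.55 ± 0.16, FDR = 7.51e-05). SATB1, a chromatin organizer, was at 3.63 and 3.04 CPM with shScr and 0.646 and 1.10 CPM with shRBM10#2 and fell (log2 FC -1.93 ± 0.27, FDR = 3.83e-04). TP63, the basal-cell transcription factor, did not pass the test at 2.80 and 3.55 against 3.66 and 3.26 CPM (log2 FC 0.12 ± 0.18, FDR = 0.655). The basal keratins KRT5 and KRT14 fell, whereas KRT15 rose. These values are from edgeR's quasi-likelihood test with Benjamini-Hochberg adjustment over all genes tested.

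By chromosome, the median log2 FC ranged from -0.122 over 988 genes of chromosome 19 to 0.103 over 186 genes of chromosome 18, with median GC contents of 59.9% and 44.4%. With the GC offset the medians were -0.0219 and 0.0387, and the range over chromosomes was -0.0924 (chromosome 6) to 0.0692 (chromosome 21).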
